A study of Mus musculus with 31 samples.

Results

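Among 31 arrays of BXD mouse strains, the 10 with the highest mean log2 ratio of Tial1 and Bag3 were set against the 10 with the lowest, so that 20 of 31 arrays entered the comparison and 11 lay between the groups. The mean, called the score here, weights both genes equally after the probes of each gene are averaged. The arrays were thus chosen by measured values, and Tial1 and Bag3 are described without a test and left out of all counts. BXD strains are inbred lines bred from C57BL/6J and DBA/2J parents, each fixed at nearly every locus for the allele of either parent. For every strain in both groups, RNA of 3 male mice aged 8 weeks was pooled in equal amounts and set against C57BL/6J RNA, also male and of that age, on 1 array with a dye for each. The high group held BXD2, BXD5, BXD8, BXD11, BXD12, BXD13, BXD15, BXD27, BXD28 and BXD33. The low group held BXD16, BXD18, BXD19, BXD21, BXD24, BXD29, BXD31, BXD32, BXD39 and BXD40. No strain in either group carried a treatment or a transgene in the labels. Titles name kidney and source fields name whole brain, and the ratios used here have no levels from which the tissue could be checked.

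TIAL1 (also called TIAR) is an RNA-binding protein that regulates splicing and translation and gathers with stalled messenger RNA in stress granules. BAG3 is a co-chaperone that binds HSP70 through its BAG domain and small heat shock proteins through other motifs, and it directs misfolded client proteins to selective autophagy. Bag3 is a known target of heat shock factor 1, which binds heat shock elements, repeats of the unit GAA in alternating orientation. The genes lie next to each other on mouse chromosome 7, with no other measured gene between them in the RefSeq order.

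The promoters of the pair and of Smchd1 and Mustn1 are shown as examples with and without a heat shock element core. Smchd1 and Mustn1 are both among the 12 genes with the largest differences upward, of which 11 had groups that did not overlap. The gap between the groups in Bag3 follows from the choice of arrays. Mustn1 alone held the core among the 9 of those 12 genes with a promoter entry, so the promoters shown do not reflect its frequency. Each runs from 250 bases before to 50 bases after a RefSeq transcription start in GRCm38.p6, is written 5′ to 3′ on the strand of the gene, and has the core GAANNTTC or TTCNNGAA in capitals where a search of both forms found it. The Bag3 entry is chr7:128523333-128523632 on the plus strand, Tial1 is chr7:128461624-128461923 on the minus strand, Smchd1 is chr17:71475294-71475593 on the minus strand and Mustn1 is chr14:30879007-30879306 on the plus strand.
Bag3: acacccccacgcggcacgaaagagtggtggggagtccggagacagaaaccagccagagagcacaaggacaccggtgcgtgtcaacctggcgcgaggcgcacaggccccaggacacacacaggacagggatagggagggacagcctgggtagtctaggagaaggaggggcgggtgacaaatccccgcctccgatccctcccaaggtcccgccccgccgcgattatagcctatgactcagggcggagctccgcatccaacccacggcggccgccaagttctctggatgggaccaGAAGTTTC
Tial1: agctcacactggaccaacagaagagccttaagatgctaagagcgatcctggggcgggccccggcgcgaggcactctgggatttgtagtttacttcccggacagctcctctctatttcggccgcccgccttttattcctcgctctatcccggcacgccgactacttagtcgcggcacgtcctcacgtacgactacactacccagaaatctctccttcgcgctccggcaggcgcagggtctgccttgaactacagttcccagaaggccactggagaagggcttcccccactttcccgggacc
Smchd1: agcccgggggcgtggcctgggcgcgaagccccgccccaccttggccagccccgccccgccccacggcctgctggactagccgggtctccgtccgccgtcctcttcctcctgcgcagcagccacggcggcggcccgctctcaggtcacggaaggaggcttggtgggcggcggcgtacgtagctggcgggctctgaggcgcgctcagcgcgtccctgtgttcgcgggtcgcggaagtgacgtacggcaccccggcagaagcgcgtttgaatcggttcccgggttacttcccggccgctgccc
Mustn1: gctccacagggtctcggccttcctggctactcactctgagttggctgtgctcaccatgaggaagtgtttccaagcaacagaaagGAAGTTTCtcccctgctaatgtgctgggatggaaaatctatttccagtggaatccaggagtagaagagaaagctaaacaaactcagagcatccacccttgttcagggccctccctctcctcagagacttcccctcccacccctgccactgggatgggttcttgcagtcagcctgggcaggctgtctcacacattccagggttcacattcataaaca
Bag3 held the core once, at bases 293 to 300 of the window, and Mustn1 once, at bases 85 to 92. Neither RefSeq entry for a Tial1 start held it, nor did Smchd1. These letters occurred in 15.1% of 32851 RefSeq promoters of the same length and in 15.4% of 11585 measured genes with an entry. Among measured genes higher in the high arrays the share was 14.1% of 898, and among those lower it was 16.0% of 817. A match describes letters and not a bound site.

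Bag3, measured by 1 probe, ran from -2.53 to -0.51 in the low arrays with a median of -1.18, and from 1.28 to 3.73 in the high arrays with a median of 2.54. All 10 low arrays were thus below the C57BL/6J reference and all 10 high arrays above it. The Tial1 probe called the first is the 1 of 2 with the higher correlation with Bag3, so these values chose it. In the low arrays this probe ran from -2.40 to 0.04, with a median of -1.33. In the high arrays it ran from 1.31 to 3.55, with a median of 2.46. It too left a gap between the groups. The second Tial1 probe ran from -0.29 to 0.60 in the low arrays and from -0.11 to 1.48 in the high arrays, so the groups overlapped. The group means differed by 3.80 for Bag3 (13.9-fold), by 3.68 for the first Tial1 probe (12.8-fold) and by 0.57 for the second (1.48-fold), as log2 ratios. These differences follow from the choice of arrays and carry no test. Over 31 arrays the first Tial1 probe and Bag3 had a Pearson correlation of 0.929 and a Spearman correlation of 0.952, the second probe and Bag3 0.472 and 0.490, and both Tial1 probes 0.484 and 0.504, all given as descriptions. The contrast therefore rests on Bag3 and on 1 of the Tial1 probes.

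At the top, BXD28 had a score of 2.83, from 2.90 for the first Tial1 probe and 3.73 for Bag3. BXD12, BXD11 and BXD2 followed with scores of 2.66, 2.64 and 2.60, and BXD5 with 2.12. At the other end, BXD31 had a score of -1.81, from -2.40 for the first Tial1 probe and -2.53 for Bag3, followed by BXD16 and BXD40, both at -1.43 for the score. The score had no break at the group borders. BXD8, the last array inside the high group, was at 1.11 and BXD9, the first outside, at 1.08. BXD19, the last inside the low group, was at -0.19, with 0.04 for the first Tial1 probe and -0.69 for Bag3, and BXD34, the first outside, was at 0.17.

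**Figure D1:**
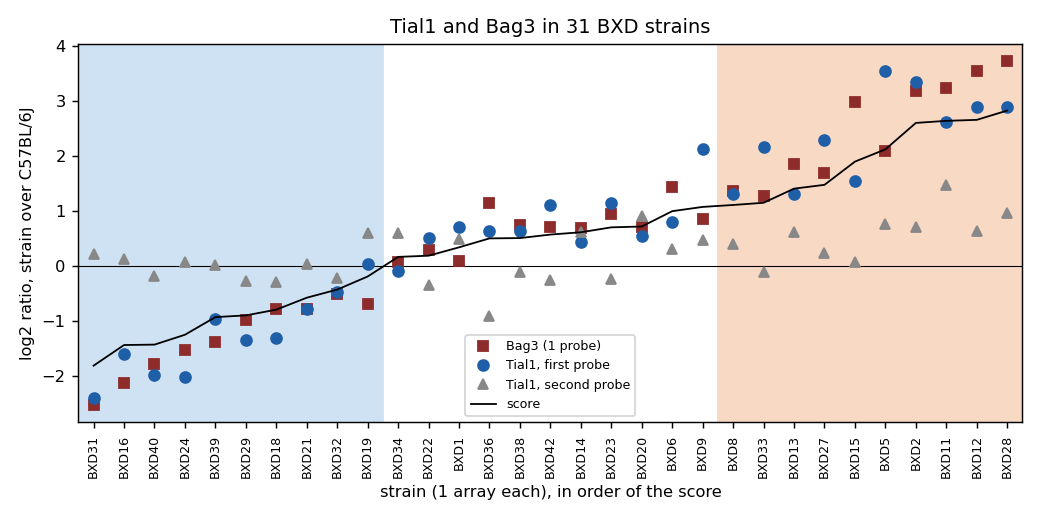
Log2 ratio of strain over C57BL/6J (vertical axis) for Bag3 and the Tial1 probes in 31 strains, 1 array each, in order of the score drawn as a line; the blue band marks the 10 low arrays and the orange band the 10 high arrays. Bag3 and the first Tial1 probe climb together from about -2.5 in BXD31 to 3.73 and 2.90 in BXD28, while the second Tial1 probe stays between -0.91 and 1.48.

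The order of the score was also in part an order of strain numbers. The high group held 6 strains numbered up to 14 and 4 numbered above, the low group 0 and 10, and this division accounted for 30.2% of the variance of the score. The first 3 principal components of all 31 arrays (20.5%, 11.4% and 9.28% of the variance) together accounted for 73.0% of it. Their part in the results was not tested beyond the fits given with each. In the high group BXD15 also stood apart in Gapdh, a glycolytic gene spotted many times, with a mean of -1.20 against -0.26 to 0.62 in the other arrays of both groups. Every array had the same distribution of 23040 values, from -4.07 to 4.95, with a median of 0.0127 and an SD of 0.602. Signal over background is unknown. Each strain had 1 array, so an effect of the strain cannot be told apart from one of its array, and p-values measure the spread between arrays of different strains.

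Across the 15094 other named genes, 2208 (14.6%) passed an adjusted p of 0.05 in limma between the groups, 1163 higher in the high arrays (7.71%) and 1045 lower (6.92%), while 4441 had an unadjusted p under 0.05. Over all 21260 features, probes without a single gene name included, 3201 passed (15.1%), 1573 higher (7.4%) and 1628 lower (7.66%). Differences were mostly small. The median over named genes was -0.01 and 242 genes differed by 1 or more on the log2 scale, 197 of them upward. The 10 high arrays lay wholly above the 10 low arrays in 74 named genes (0.49%) and wholly below them in 49 (0.325%), 0.815% in all. Among strains numbered above 14 alone, 4 high and 10 low, 646 named genes passed (4.28%).

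Among named genes the 12 largest differences upward belonged to genes on other chromosomes than the pair. Over all features, probes with several or no gene names ran from -2.92 to 3.82. Zfp358, which encodes a zinc finger protein, ran from -2.39 to -0.10 in the low arrays with a median of -0.70, and from 1.26 to 4.01 in the high arrays with a median of 2.60. Rps4l, a relative of the ribosomal protein gene Rps4x, ran from -2.38 to -0.44 (median -0.94) and from 1.07 to 3.34 (median 2.39). Smchd1, a chromatin protein needed to keep the inactive X chromosome silent, ran from -2.45 to -0.75 (median -1.28) and from 0.82 to 3.16 (median 1.78). In all of them every low array was below the reference, every high array above it, and the groups did not overlap. The differences were 3.70 ± 0.352 for Zfp358 (SE, n = 10 and 10, limma adjusted p = 8.79e-07), 3.46 ± 0.323 for Rps4l (adjusted p = 7.29e-07) and 3.29 ± 0.311 for Smchd1 (adjusted p = 8.73e-07), close in size to that of Bag3. Rps4x itself differed by -0.09 (adjusted p = 0.887), and signal of such close copies can mix on a spotted probe.

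The other genes of the 12 highest follow by role. Tapbp encodes tapasin, which helps load peptides on class I molecules of the major histocompatibility complex, and ran from -1.60 to -0.38 in the low and from 0.22 to 3.58 in the high arrays, a difference of 2.74 ± 0.354 (adjusted p = 3.63e-05). Rfx5, a transcription factor of class II genes, differed by 2.80 ± 0.359 (adjusted p = 3.39e-05), with its low arrays reaching 0.22 and its high arrays starting at 0.29. Efnb2 (ephrin-B2, a ligand of Eph receptors) differed by 2.59, Tmed6 (a protein of the early secretory pathway) by 2.61 and Tmem134 (a membrane protein) by 2.48. Rnu5g, a U5 small nuclear RNA of the spliceosome, had the lowest values of the set, from -4.07 to -1.06 in the low arrays, against 0.14 to 1.39 in the high arrays, a difference of 3.10 ± 0.302 (adjusted p = 1.14e-06). Its value of -4.07, in BXD40, is the lowest of the distribution that all arrays share. Trim71, an RNA-binding ubiquitin ligase, differed by 2.66 and Mustn1, a nuclear protein of muscle and skeleton, by 2.38. Syde1 differed by 3.27 ± 0.390 (adjusted p = 1.48e-05) and was the only gene of the 12 whose groups overlapped.

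These 12 genes came from 8 chromosomes, none of them chromosome 7, and each was measured by 1 probe. All 12 passed among strains numbered above 14 alone, with differences from 2.28 to 3.52, and all 12 with the first principal component as a covariate. With the first 3 components as covariates 0 of the 12 passed, with differences from -1.19 for Tapbp to 2.89 for Rnu5g. These components, which the 12 genes entered, accounted for 73.0% of the variance of the score. Of the 9 with a RefSeq promoter entry, Mustn1 alone held a heat shock element core.

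**Figure D2:**
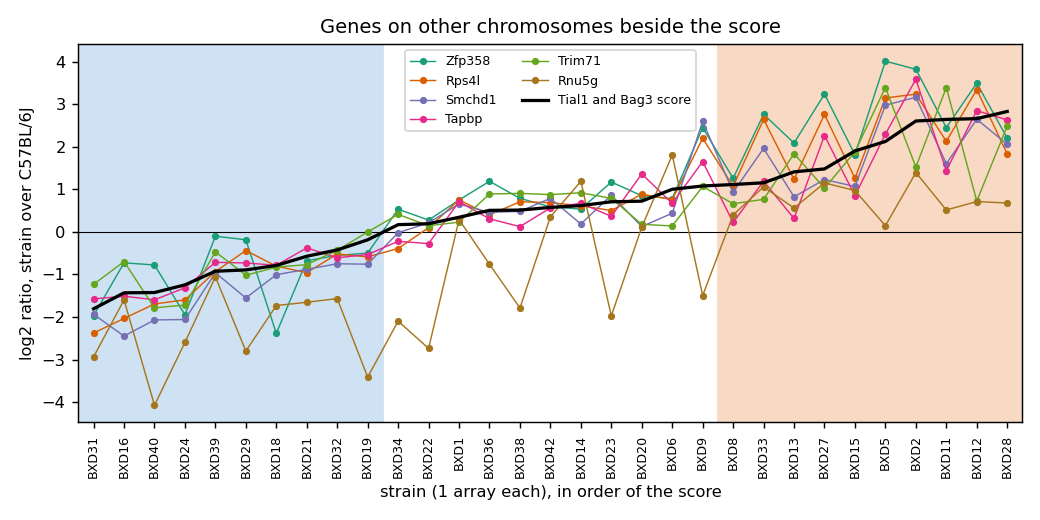
Log2 ratio of strain over C57BL/6J (vertical axis) for 6 single-probe genes on chromosomes 6, 8, 9 and 17 in 31 strains ordered by the Tial1 and Bag3 score (black line); blue marks the low and orange the high arrays. In Zfp358, Rps4l, Smchd1, Tapbp, Trim71 and Rnu5g all orange points lie above all blue ones; in the 11 middle strains Rnu5g swings between -2.7 and 1.8.

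The 12 lowest differences, of genes lower in the high arrays, ran from -1.98 to -1.31. Rhbdf1, an inactive rhomboid protein of the secretory pathway, ran from -0.26 to 0.69 in the low arrays and from -2.88 to -0.54 in the high arrays, a difference of -1.58 ± 0.266 (adjusted p = 5.09e-04). The transcript 1700020N15Rik on the X chromosome ran from -0.13 to 1.17 and from -1.57 to -0.37, a difference of -1.48 ± 0.171 (adjusted p = 9.40e-06). With A930018O16Rik, at -1.31, these were the 3 of the 12 lowest genes whose groups did not overlap. Ttr (transthyretin, a carrier of thyroid hormone and retinol-binding protein) had the largest difference of this kind at -1.98 ± 0.649 (adjusted p = 0.0428), but it spanned -1.81 to 4.95 in the low arrays, and its call ended when any of 14 single arrays was left out (highest adjusted p = 0.0760), and held only without BXD12, BXD21, BXD24, BXD29, BXD32 or BXD39. The other 8 were Inka1 (-1.83), Ogfrl1 (-1.80), 1700083H02Rik (-1.49), 4930556G01Rik (-1.46), Syt13 (-1.44), 4930562F07Rik (-1.42), Fam98c (-1.40) and Capn15 (-1.34), the values being differences in log2 ratio. Inka1 inhibits the kinase PAK4, Syt13 belongs to the synaptotagmins and Capn15 to the calpains. Fam98c lies on chromosome 7, like Tial1 and Bag3. Among strains numbered above 14, 6 of the 12 passed and all 12 had the same sign, from -2.23 to -0.82. With the first principal component 4 passed, and with the first 3 components 0. In the latter fit the differences ran from -1.42 for A930018O16Rik to 1.53 for Ogfrl1.

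As a description over all 31 arrays, the genes most like the score were Rps4l (r = 0.932), Smchd1 (0.931), Tapbp (0.925), Zfp358 (0.904) and Trim71 (0.891). Over the 21 strains numbered above 14 the same correlations were 0.911, 0.948, 0.946, 0.869 and 0.951. Among the 15094 other named genes, 5 (Smchd1, Rps4l, Zfp358, Tapbp and Rfx5) were closer to the first Tial1 probe than Bag3 was, with r = 0.976 for Smchd1, 0.967 for Rps4l, 0.949 for Zfp358 and 0.938 for Tapbp against 0.929 for Bag3. No gene, of the same 15094, was closer to Bag3 than the first Tial1 probe was, but that probe was picked as the nearer to Bag3 of 2. A correlation of 0.8 or more with the score was reached by 20 genes on 13 chromosomes, none of them chromosome 7, and 0.7 or more by 83 genes on 19 chromosomes, 5 of them on chromosome 7. All these arrays share the reference and the normalization. The most opposite genes were Shisa9 (r = -0.830), an auxiliary protein of glutamate receptors, Fbxo31 (-0.827), a substrate receptor of a ubiquitin ligase, 1700020N15Rik (-0.788), Cts3 (-0.780), a cathepsin, and Gtf2ird2 (-0.773), of the TFII-I family. In Fbxo31 the high arrays ran from -0.77 to -0.08 and the low arrays from 0.10 to 0.85, with no overlap and a difference of -0.78 ± 0.115 (adjusted p = 1.41e-04). Both probes of Cts3 differed alike, by -0.65 and -0.63.

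The neighbours of Tial1 and Bag3 passed at a share close to that of all named genes. Of the 15 measured genes nearest on each side, 4 of 30 passed (13.3%, beside 14.6% of all named genes), 2 in each direction. The groups overlapped in all 30, while they did not overlap in only 0.815% of all named genes. Over 10 genes on each side 3 of 20 passed, over 25 on each side 6 of 50 and over 50 on each side 14 of 100, while 165 of 1135 genes of chromosome 7 passed (14.5%). The share per chromosome ran from 12.6% on chromosome 8 to 16.2% on chromosome 1.

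Slc5a2, the glucose transporter SGLT2 of the proximal tubule and the second measured gene on the Tial1 side, ran from -1.96 to -0.04 in the low arrays (median -0.84) and from -0.75 to 1.49 in the high arrays (median 0.26). The groups overlapped, and the difference of 1.26 ± 0.275 passed (adjusted p = 0.00388). Among strains numbered above 14 it was 1.01 (adjusted p = 0.0876). Mcmbp, a binding protein of the replicative helicase and the nearest on the Bag3 side, differed by 0.67 ± 0.196 (adjusted p = 0.0238). Kat8, a histone acetyltransferase, differed by -0.49 ± 0.118 (adjusted p = 0.00816) and 4933402N03Rik by -0.41 ± 0.122 (adjusted p = 0.0266), the latter at an adjusted p of 0.0512 without BXD29. None of the 4 passed among strains numbered above 14 or with the first principal component as a covariate. The other nearest genes gave values that missed the threshold. On the Tial1 side these were Rgs10 at -0.31 (adjusted p = 0.223), a regulator of G protein signalling, Tgfb1i1 at 0.20 (0.607), Cox6a2 at 0.22 (0.490), a subunit of cytochrome c oxidase, and 4931431B13Rik at -0.24 (0.0943). On the Bag3 side they were Wdr11 at -0.36 (0.300), 1700102J08Rik at 0.04 (0.894), Fgfr2 at 0.21 (0.388), a fibroblast growth factor receptor, and Ate1 at -0.16 (0.617), an arginyl transferase. The value of Tgfb1i1 rested on BXD8, at 2.08, and was -0.019 without it. Correlations of the 30 neighbours with the score ran from -0.488 to 0.625.

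**Figure D3:**
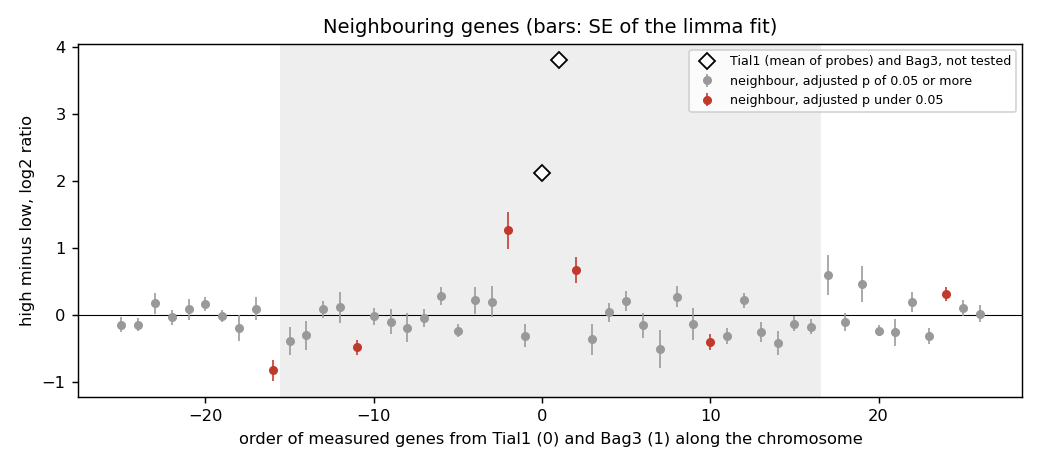
Difference in log2 ratio between 10 high and 10 low arrays (vertical axis, bars are the SE of the limma fit) for measured genes on chromosome 7 in their order from Tial1 (0) and Bag3 (1); grey shading covers the 15 nearest on each side, red marks an adjusted p under 0.05. Tial1, as the mean of its probes at 2.12, and Bag3 at 3.80 stand as untested diamonds above neighbours that lie between -0.83 and 1.26.

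Chaperone genes passed in both directions. Of 100 measured members of 7 lists, 6 were higher and 5 lower (11.0%, beside 14.6%), with a median difference of -0.01, the same as over all named genes. In the HSP70 family, the ATP-driven chaperones that BAG3 binds, only Hspa14 passed among 12 genes, at -0.71 (adjusted p = 0.0116). The inducible Hspa1a stood at 0.25 (adjusted p = 0.508) and the constitutive Hspa8 at -0.05 (0.891). Among 10 small heat shock proteins, Hspb3 was higher by 0.82 (adjusted p = 0.0173) and Odf1, a sperm tail protein of the family, lower, at -0.44 (adjusted p = 0.0403). Hspb8, the partner of BAG3, stood at -0.09 (adjusted p = 0.684), Hspb1 at 0.15 (0.553) and Cryab at 0.15 (0.738). The only measured HSP90 family gene, Trap1, stood at 0.36 (adjusted p = 0.362).

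Among 37 J-domain proteins, which hand clients to HSP70, Dnajc8 (0.63), Dnajc19 (0.58) and Dnajb6 (0.45) were higher and Dnajb8 (-0.49) lower, while Dnajb1, a heat shock factor target, stood at 0.23 (adjusted p = 0.0752). Of the chaperonins and prefoldin, which fold actin and tubulin, Cct2 was higher by 0.68 (adjusted p = 0.00499) and the other 16 did not pass. Within the BAG family and other exchange factors, Bag1 was higher by 0.45 ± 0.139 (adjusted p = 0.0332), with values of 0.11 to 1.24 in the high and -0.39 to 0.55 in the low arrays. Bag4 stood at -0.02, Bag5 at 0.08 and Bag6 at -0.04 and did not pass. The co-chaperones of HSP70 and HSP90 gave Unc45a at -0.35 (adjusted p = 0.00999) and Fkbp8 at -0.32 (adjusted p = 0.0443) among 15, and the ubiquitin ligase Stub1 at -0.20 (0.139) without a call. The call of Bag1 ended without any of BXD2, BXD5, BXD12, BXD16 and BXD21 (highest adjusted p = 0.0625). Those of Odf1, Dnajc19, Fkbp8 and Dnajb6 ended without any of 9, 10, 14 and 15 single arrays (highest adjusted p = 0.0750, 0.0675, 0.0794 and 0.0830). Genes in these lists that did not pass were named for their role with their values known.

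Stress genes passed in 22 of 189 cases, 16 higher and 6 lower (11.6%, beside 14.6% of all named genes). Hsf2, a heat shock factor, ran from -0.63 to -0.02 in the low arrays and from -0.61 to 0.43 in the high arrays, where BXD12 at -0.61 lay far below the rest. Its difference of 0.40 ± 0.114 passed (adjusted p = 0.0222), as it did among strains numbered above 14 (0.52, adjusted p = 0.0373). It did not pass with spot position removed (0.30, adjusted p = 0.0609) or with the first principal component as a covariate (0.60, adjusted p = 0.0653). Fitted alone, the 2 probes of Hsf2 differed by 0.34 (adjusted p = 0.247) and 0.45 (0.0360). Of 24 genes of endoplasmic reticulum chaperones and the unfolded protein response, Calr, a lectin chaperone, was higher by 0.71 (adjusted p = 0.0374), a call that ended when any of 9 single arrays was left out (highest adjusted p = 0.0655), and Hspa5 (BiP) stood at -0.51 (adjusted p = 0.155). The median of that list was -0.17. In limma 7 of the 24 had an unadjusted p under 0.05, beside 4441 of all 15094 named genes. None of 16 genes of the integrated stress response passed in limma, with 5 at an unadjusted p under 0.05; Eif2ak4, a kinase that senses amino acid shortage, stood at -0.43 (adjusted p = 0.0831) and the transcription factor Atf3 at 0.42 (0.0704), which among strains numbered above 14 was higher by 0.64 (0.0365). In the oxidative stress list Gclm, of glutathione synthesis, was higher by 0.75 (adjusted p = 0.0218), Prdx3, a mitochondrial peroxidase, higher by 0.45 (0.0465) and the cystine transporter Slc7a11 lower, at -0.39 (0.0197), among 23. The p53 target Ccng1 was lower, at -0.84 (adjusted p = 0.0314), the only call among 15. The call of Prdx3 ended without any of 13 single arrays (highest adjusted p = 0.0818), and that of Ccng1 without BXD5, BXD18, BXD39 or BXD40 (0.0554).

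The list nearest in role to TIAL1, stress granule and other RNA-binding proteins, had 6 of 26 genes higher and 0 lower (23.1%, beside 14.6% of all named genes and 7.71% of them higher), and a median difference of 0.12. Pum2, a translational repressor, ran from -1.56 to 0.90 in the low and from -0.93 to 2.37 in the high arrays, so the groups overlapped although their medians were -0.37 and 1.49. It was higher by 1.52 ± 0.387 (adjusted p = 0.0109), and by 2.12 among strains numbered above 14 (adjusted p = 0.0139). With spot position removed the difference of Pum2 was 0.85 (adjusted p = 0.00567), and with the first principal component as a covariate it was 0.89 (adjusted p = 0.445). Stau1, which binds double-stranded RNA, was higher by 0.84 ± 0.156 (adjusted p = 0.00106), and by 0.90 among those strains (adjusted p = 0.0361). Atxn2 was higher by 0.93 (adjusted p = 0.00871), G3bp1, a scaffold of stress granules, by 0.51 (0.0255) and Fmr1 by 0.42 (0.0228). Hnrnpa1 was higher by 0.90 as the mean of its probes, which differed by -0.12 and 1.93. Tia1, the closest relative of Tial1, stood at 0.15 (adjusted p = 0.329). The list was tested for no enrichment. Of its 6 calls, 2 passed among strains numbered above 14, 1 (Stau1) with the first principal component as a covariate, and 4 with spot position removed, which ended those of G3bp1 (adjusted p = 0.0624) and Fmr1 (0.0814).

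Genes of selective autophagy and partners of BAG3 passed in 2 of 31 cases (6.45%, beside 14.6% of all named genes). Bcl2, an inhibitor of apoptosis for whose binding the BAG family was named, ran from -0.45 to 0.21 in the low arrays and from 0.19 to 1.22 in the high arrays, touching only at that edge. It was higher by 0.76 ± 0.129 (adjusted p = 5.25e-04), and by 0.66 among strains numbered above 14 (adjusted p = 0.0199), while with the first principal component it was 0.53 (adjusted p = 0.144). Tfeb, a transcription factor of lysosomal genes, was higher by 0.71 (adjusted p = 0.0384), a call that ended without any of 11 single arrays (highest adjusted p = 0.0722), and the autophagy receptor Sqstm1 stood at -0.36 (0.208). The proteasome gave Psmd2 at 0.61 (adjusted p = 0.00478) and Psmb5 at -0.84 (0.00564) among 31. Immediate early genes, which respond quickly to stimulation, passed in 6 of 19 cases (31.6%, beside 14.6% of all named genes). Klf2 (1.21), Fosl1 (0.77) and Fosl2 (0.52) were higher and Jun (-0.63), Klf4 (-0.40) and Egr3 (-0.30) lower. Among strains numbered above 14, 0 of 19 passed, where 4.28% of all named genes did. The calls of Jun and Klf4 each ended when any of 8 single arrays was left out (highest adjusted p = 0.0635 and 0.0620), and that of Egr3 without BXD5 or BXD29 (0.0512). Over chaperone and stress lists together 33 of 289 measured genes passed (11.4%, beside 14.6% of all named genes). The groups overlapped in all 289, while they did not overlap in only 0.815% of all named genes. Of the 33, 4 (Hsf2, Stau1, Pum2 and Bcl2) passed among strains numbered above 14. With the first principal component as a covariate 4 of the 33 passed, and with the mean of each spot position removed 26. Of all 3201 called features, 841 passed among strains numbered above 14, 408 with that covariate and 2418 with position removed. Over all 289 genes, 6 passed among strains numbered above 14 (2.08%, beside 4.28% of all named genes), the other 2 being Atf3 and Dnajc4.

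**Figure D4:**
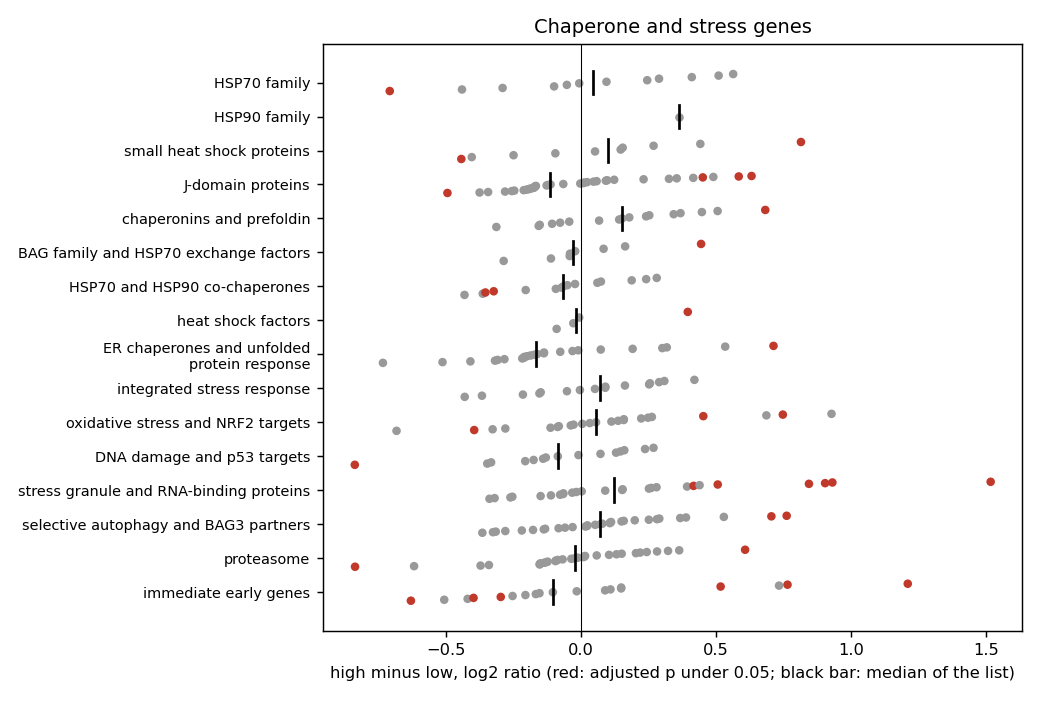
Difference in log2 ratio between high and low arrays (horizontal axis) for each measured gene of 16 chaperone and stress lists; red points have an adjusted p under 0.05 and black bars mark each list's median. The 33 red points lie on both sides of 0, and Pum2 at 1.52 is farthest to the right.

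Markers of cell types passed in 13 of 96 cases, 8 higher and 5 lower (13.5%, beside 14.6%). Among proximal tubule genes Slc5a2 alone passed of 18; the mean of the list ran from -0.06 to 0.42 in the low arrays and from -0.57 to 1.17 in the high arrays. In the fat cell list 2 of 8 passed, Adipoq, an adipocyte hormone, at 1.71 ± 0.303 (adjusted p = 7.75e-04) and Ucp1, the uncoupling protein of brown fat, at 0.83 (0.0109). The mean of that list ran from -0.06 to 0.38 in the low arrays and from 0.32 to 1.24 in the high arrays. Its median difference was 0.20, with members from -0.17 to 1.71, so the list mean does not stand for a shift of every member. In limma 3 of the 8 fat cell genes had an unadjusted p under 0.05. Among strains numbered above 14, 1 of the 8 passed. In the immune cell list 4 of 11 passed (36.4%, beside 14.6% of all named genes). Among strains numbered above 14 this was 0 of 11, where 4.28% of all named genes passed. H2-Aa at 1.01 (adjusted p = 0.00460), Cd14 at 0.67 and Cd79a at 0.50 were higher and Ptprc at -0.44 lower. The call of Ptprc ended without any of 12 single arrays (highest adjusted p = 0.0742). The list median was -0.05. The mean of the list ran from -0.23 to 0.04 and from -0.22 to 0.27. Neuron and glia markers had 1 of 13, Mbp at 0.36 (adjusted p = 0.0242), with list means of -0.01 to 0.18 and -0.01 to 0.24. Their part in the differences was not tested, these genes were named after their values were seen, and fewer cells of a type and less RNA per cell cannot be told apart in bulk RNA.

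Genes with a second probe and spots without a gene name were also compared. In 901 genes with 2 probes, the differences of both probes had the same sign in 50.8% and a correlation of -0.0023 across genes, which are not independent replicates. In the 122 of them that passed these were 86.1% and 0.245, but a call on the mean of both probes favours probes that agree. The 12 highest and 12 lowest genes had 1 probe each, so agreement of probes is unknown for them. Spots repeat in a layout of 480 positions, and 16 of these, positions 457 to 472, are unnamed in the platform table in all 48 repeats. Of those 768 probes 163 passed (21.2%), 179 differed by 1 or more (23.3%, against 1.60% of named genes), and they made up 26 of the 50 largest absolute differences of all features. Positions 457 to 464 had a median of -0.55, with 80 lower and 15 higher calls among 384 probes, whereas positions 469 to 472 had 50 higher and 8 lower among 192 and reached 3.48. Between them, positions 465 to 468 had 3 higher and 6 lower among 192 and ran from -0.68 to 0.85. Outside the unnamed positions, position 24 had a median of 0.61. Position accounted for 10.7% of the variance of the probes' differences, and with the mean of each position removed all 12 of the highest genes and 11 of the 12 lowest passed, all but Ttr (adjusted p = 0.0640). It ended 7 of the 33 chaperone and stress calls, those of Hspb3, Bag1, Hsf2, G3bp1, Fmr1, Tfeb and Jun, with adjusted p from 0.0560 for Bag1 to 0.0907 for Jun. Of all 3201 called features, 2418 kept their call in that fit.

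**Figure D5:**
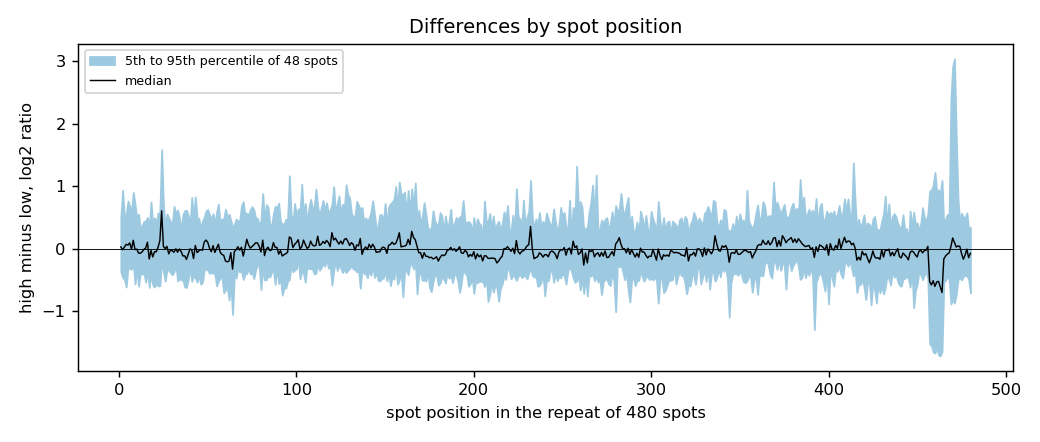
Difference in log2 ratio between high and low arrays (vertical axis) by position in the repeat of 480 spots; the line is the median and the band the 5th to 95th percentile of 48 spots. The median falls to about -0.5 at positions 457 to 464, which are unnamed here, and the band reaches 3 at positions 469 to 472.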

How the data were processed

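RNA of 31 BXD strains was compared with a common C57BL/6J reference on spotted glass arrays of 23040 probes, with the strain in red and the reference in green, no dye swap, and spike-in RNA in the reference only, per the labels' protocols. The deposited values are taken as log2 ratios of strain over reference, the likely reading. Base and direction of the logarithm are not given in the sources used here, and with a turned direction every level would change sign and the groups would trade places, so each high minus low difference would keep its sign. R 2.0.0 and limma are named per the submitters' processing notes. The sorted values were identical in all arrays, so the authors had quantile normalized them. Intensities were not used here.

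Of the probes, 16874 carried 1 gene name, 134 several and 6032 none, and 16196 matched the RefSeq gene table of GRCm38.p6, used for names and gene order. Probes of a gene were averaged. The other 6166 probes stayed single. Arrays were ranked by the mean of Tial1 and Bag3, and 10 high were compared with 10 low in limma 3.58.1 under R 4.3.3 (lmFit and eBayes, 2-sided, Benjamini-Hochberg over 21260 features, threshold 0.05), with no covariate. On simulated data with 21260 features, 31% of 100 differences of 0.5 and 88% of 100 differences of 1 were recovered, and 6 unchanged features were called. The simulated noise was normal and independent between features, unlike that of these arrays. Far fewer features were changed than the 3201 called in the data. These shares are therefore not the power of the real comparison.

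Named genes were the 12 highest and 12 lowest differences among those past the threshold, neighbours past it among 15 on each side and the 5 nearest on each side, members of chaperone and stress lists past it (or the 2 of largest difference), and the 5 highest and lowest correlations with the score. The members and lists were chosen with earlier results of these data known. Alternatives were other group sizes and scores, covariates, array weights, centring, scaling, filters, and leaving out each array. Those for strains numbered above 14, spot position, 3 principal components, the second Tial1 probe and 9 against 9 arrays were added after seeing the data. The split of strain numbers at 14, and that between BXD32 and BXD33, are not in the labels.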

Additional observations from a re-analysis of the deposited data

Results flagged for a closer look

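In 152 groups of 10 arrays, the high and the low group of each of the 76 genes named by rule, the gap between 1 array and its nearest neighbour took an unusually large part of the group's range in 18 cases by Dixon's criterion at 95%. Chance alone would give this in about 1 of 20 groups. All values are log2 ratios of strain over reference.

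Among leading genes, Efnb2 was 3.58 in BXD5, where the next high array was at 1.28, and 4930562F07Rik was -2.88 in BXD5 with the next at -1.20. A930018O16Rik was -3.61 in BXD28 with the next at -0.57. Ogfrl1 was -0.23 in BXD15 with the next at -1.80, and Fam98c was -0.75 in BXD15 with the next at -0.09.

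Of the neighbours, Tgfb1i1 was 2.08 in BXD8 (next 0.40), 1700102J08Rik was -0.96 in BXD33 (next -0.12) and Ate1 was -1.01 in BXD15 (next -0.02). In the low group Kat8 was 1.17 in BXD18 (next 0.74) and Fgfr2 was -1.30 in BXD16 (next -0.65).

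Of the chaperone and stress genes, Dnajb6 was 1.54 in BXD8 (next 0.66) and Dnajc19 was 1.64 in BXD11 (next 0.66). Hsf2 was -0.61 in BXD12 (next -0.11). Calr was 2.69 in BXD2 (next 1.49), and Eif2ak4 was -1.58 in that strain (next -0.81). Gclm was -0.97 in BXD33 (next 0.29) and Ccng1 was -1.81 in BXD15 (next -0.57). Slc7a11 was 0.92 in BXD32 of the low group (next 0.26). BXD15 gave 4 of the 18 cases, the most of any strain, and is the array with the lowest Gapdh.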

How the results depend on the processing

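Of 3201 features called between high and low arrays (1573 higher, 1628 lower), with 4 neighbours and 33 chaperone and stress genes among them, counts stayed within 1.5 times under the other array numbers, groups by Bag3 alone, BXD33-42 as a covariate, the eBayes settings, centring, scaling, the filter on spread, every probe as a feature and removal of spot position. Leaving out 1 array gave 2623 to 3707 features (1333 to 1764 higher, 1290 to 1943 lower), 3 to 5 neighbours and 26 to 48 chaperone and stress genes. The high count came without BXD15. Of 65 named calls, 51 passed without each array in turn, and 8 were lost with spot position removed.

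Strain number up to 14 or above as a covariate left 1414 (712 higher, 702 lower), 1 neighbour and 12 chaperone and stress genes, with 1174 of the features shared. Only strains numbered above 14 gave 996 (511 higher, 485 lower), 0 neighbours and 6 chaperone and stress genes, from 14 arrays instead of 20. The first principal component as a covariate left 971 (559 higher, 412 lower; 408 shared), 0 and 14. The first 3 components left 141 (83 higher, 58 lower; 46 shared), 0 and 2; these components accounted for 73.0% of the score. Groups by the second Tial1 probe, which shared 6 high and 4 low arrays, gave 6637 (3324 higher, 3313 lower), 13 and 98. The slope on the score gave 2 neighbours, array weights 7 neighbours and 64 chaperone and stress genes, and groups by Tial1 alone 52 of the latter. The causes of these moves were otherwise not tested.

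Signs turned for Tgfb1i1, which did not pass, at 8 arrays a group (-0.11), 9 a group (-0.063), the slope (-0.0023 per unit of score), strain number as a covariate and strains above 14 alone (-0.058 in both), the second Tial1 probe (-0.17) and without BXD8 (-0.019). They turned for 1700102J08Rik, also not called, at 12 arrays a group (-0.073), Tial1 alone (-0.091), strain number as a covariate and strains above 14 (-0.20 in both), BXD33-42 as a covariate (-0.014), the first component (-0.090), spot position removed (-0.037) and 3 components (-0.40). With the first component they also turned for 1700083H02Rik (0.11), Syt13 (0.15), Cox6a2 (-0.22), 4931431B13Rik (0.065), Trap1 (-0.25), Dnajc8 (-0.18), Eif2ak4 (0.034) and Tfeb (-0.074). With 3 components they turned for Rps4l (-0.18), Smchd1 (-0.18), Rfx5 (-0.039), Tapbp (-1.19), Efnb2 (-0.89), Ttr (0.12), Ogfrl1 (1.53), 1700083H02Rik (0.0086), Syt13 (1.27), 4930562F07Rik (1.36), Slc5a2 (-2.39), Cox6a2 (-0.96), Mcmbp (-0.65), Wdr11 (1.94), Fgfr2 (-0.14), Hspa14 (0.16), Odf1 (0.012), Bag1 (-0.026), Calr (-0.29), Slc7a11 (0.049), Atxn2 (-0.45), Stau1 (-0.21), Hnrnpa1 (-0.92), Tfeb (-1.08), Psmd2 (-0.82), Fosl2 (-0.024), Jun (0.28), Klf2 (-2.93) and Fbxo31 (0.031). With groups by the second Tial1 probe they turned for Odf1 (0.088), Dnajb6 (-0.021), Fkbp8 (0.075), Unc45a (0.026) and Hsf2 (-0.035). None of these turned values passed in limma, the lowest adjusted p being 0.0764 for Slc5a2 with 3 components. No paired analysis was possible because each strain had 1 array and replicate numbers pair no arrays across groups.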

Other observations

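Muscle markers had 2 of 13 genes lower in the high arrays and 0 higher (15.4%, beside 14.6% of all named genes), with a list median of -0.05 and list means of -0.46 to -0.03 in the low and -0.46 to -0.21 in the high arrays. The called genes were Mylpf, a light chain of fast muscle myosin, at -0.70 ± 0.130 (SE, limma adjusted p = 0.00118) and Ckm, muscle creatine kinase, at -0.65 ± 0.159 (adjusted p = 0.00849). Both kept their call without each array in turn, while among strains numbered above 14 Mylpf was at -0.64 (adjusted p = 0.0494) and Ckm at -0.72 (adjusted p = 0.0888). Of 23 cytosolic ribosome genes 3 passed (13.0%): Rps3 was higher by 0.59 (adjusted p = 0.0247) and Rps20 (-0.63, adjusted p = 0.0256) and Rplp0 (-0.49, adjusted p = 0.0310) lower, the last with an adjusted p of 0.0576 without BXD24. Of 25 genes of oxidative phosphorylation 2 passed (8.0%): Uqcrc1 was higher by 1.03 (adjusted p = 0.0456), a call that ended without any of 13 single arrays (highest adjusted p = 0.0813), and Atp5o by 0.77 (adjusted p = 0.0235). Endothelial markers gave Tie1 at 0.62 (adjusted p = 0.0418) among 10, markers of the distal nephron Foxi1 at -0.43 (adjusted p = 0.0458) among 13, and red cell markers Alas2 at -0.51 (adjusted p = 0.0378) among 4. The calls of Tie1, Foxi1 and Alas2 ended without any of 14, 14 and 10 single arrays (highest adjusted p = 0.0787, 0.0834 and 0.0708). None of 6 podocyte markers passed in limma, and 0 had an unadjusted p under 0.05. These genes were named after their values were seen.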
